A study of Homo sapiens with 96 samples.

Results

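The cassette exons described here lie between 2 short introns. A cassette exon is one that the splicing machinery can include in the mature RNA or skip. Members were chosen from the skipped-exon events of 8 inhibitor comparisons by length alone: an exon of 28 to 300 nt with a flanking intron of at most 500 nt on either side. They numbered 10730 of 164617 skipped-exon events (6.52%), on 9170 distinct exons of 3422 genes. An event joins an exon to 1 pair of neighbouring exons, so 1304 exons had more than 1 event and members of a gene share reads. The median exon was 111 nt (quartiles 80 and 149), with a median of 204 nt for the upstream intron (21 to 500) and 196 nt for the downstream intron (50 to 500).

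RNA was taken from A549, a human lung adenocarcinoma cell line, treated with 0.01% DMSO, with 1 µM GSK591, with 1 µM MS023, or with both inhibitors at that dose (co-treatment). GSK591 inhibits PRMT5, and MS023 inhibits Type I protein arginine methyltransferases (PRMTs). Poly(A) RNA was sequenced after 2, 4 and 7 days, with 3 libraries in each of 10 groups; the co-treatment had no 7-day group here. The 2-day inhibitor libraries were set against the same 4-day DMSO libraries as the 4-day ones, so at 2 days inhibitor and time in culture cannot be told apart, and comparisons set side by side share controls. The 7-day controls were taken to be the 7-day DMSO libraries. No source used here says that libraries came from separate cultures, so p-values measure the spread between these libraries. A single cell line was used, and a shift in every cell, a shift in some cells, and unequal decay of the included and skipped RNA cannot be told apart in bulk RNA.

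PRMT5 transfers methyl groups to give symmetric dimethylarginine, and the Type I enzymes give asymmetric dimethylarginine. Sm proteins of the spliceosome and many RNA-binding proteins carry these marks. When introns are long, splice sites are generally recognised as pairs across the exon between them (exon definition), whereas a short intron can be recognised as a unit across itself (intron definition). An exon between a pair of short introns therefore sits where either mode can operate.

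The 10 members shown as sequence are those that the results below turn on. Capitals mark the cassette exon and lower case the flanking introns, 5′ to 3′ on the transcribed strand, read from hg19. For TMEM120A both introns are shown whole, to show how compact such a unit is. For the others, 30 intron bases before and 20 after the exon are shown. The first 6 lost the exon with GSK591, HIPK3 and MAPK12 lost it with MS023, and TPM2 and STRA13 moved in opposite directions with the 2 inhibitors.
TMEM120A chr7:75616747-75617035 (-): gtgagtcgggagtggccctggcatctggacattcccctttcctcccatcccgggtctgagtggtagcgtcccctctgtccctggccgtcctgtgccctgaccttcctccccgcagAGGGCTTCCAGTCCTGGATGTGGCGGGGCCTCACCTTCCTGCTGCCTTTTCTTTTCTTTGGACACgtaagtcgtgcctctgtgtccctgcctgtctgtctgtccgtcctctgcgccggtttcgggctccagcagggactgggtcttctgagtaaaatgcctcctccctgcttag
NT5C chr17:73127120-73127230 (-): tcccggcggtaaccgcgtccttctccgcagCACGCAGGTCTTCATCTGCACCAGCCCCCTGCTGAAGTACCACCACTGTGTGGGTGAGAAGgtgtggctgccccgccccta
AP1G2 chr14:24035005-24035131 (-): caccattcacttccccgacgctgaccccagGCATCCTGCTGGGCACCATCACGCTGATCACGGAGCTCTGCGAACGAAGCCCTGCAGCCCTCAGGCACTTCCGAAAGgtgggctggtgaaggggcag
AAAS chr12:53701609-53701743 (-): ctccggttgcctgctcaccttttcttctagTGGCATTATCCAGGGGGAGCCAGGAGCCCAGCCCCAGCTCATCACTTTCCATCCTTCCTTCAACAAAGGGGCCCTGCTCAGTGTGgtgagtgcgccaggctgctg
GPR137 chr11:64055507-64055706 (+): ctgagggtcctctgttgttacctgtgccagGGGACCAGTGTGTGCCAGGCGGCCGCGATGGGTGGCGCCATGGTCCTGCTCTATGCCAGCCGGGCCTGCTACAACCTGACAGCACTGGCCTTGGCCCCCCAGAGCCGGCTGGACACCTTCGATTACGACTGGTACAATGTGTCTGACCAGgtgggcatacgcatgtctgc
SNHG1 chr11:62622340-62622440 (-): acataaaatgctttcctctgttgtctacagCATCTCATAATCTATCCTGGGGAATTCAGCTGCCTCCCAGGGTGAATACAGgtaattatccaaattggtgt
HIPK3 chr11:33369682-33369794 (+): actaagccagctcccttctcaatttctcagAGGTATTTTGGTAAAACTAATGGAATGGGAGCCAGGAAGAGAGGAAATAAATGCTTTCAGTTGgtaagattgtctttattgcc
MAPK12 chr22:50694219-50694340 (-): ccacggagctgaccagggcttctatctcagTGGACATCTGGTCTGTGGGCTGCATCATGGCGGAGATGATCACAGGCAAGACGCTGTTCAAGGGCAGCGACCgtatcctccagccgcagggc
TPM2 chr9:35685041-35685166 (-): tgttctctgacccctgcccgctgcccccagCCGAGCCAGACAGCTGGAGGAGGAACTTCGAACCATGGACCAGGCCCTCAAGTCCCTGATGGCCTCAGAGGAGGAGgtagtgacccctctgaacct
STRA13 chr17:79977497-79977600 (-): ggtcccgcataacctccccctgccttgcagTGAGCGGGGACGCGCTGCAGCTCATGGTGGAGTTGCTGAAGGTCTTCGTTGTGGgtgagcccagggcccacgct
The exon ended in C in TMEM120A and MAPK12 and in G in the other 8, and each was followed by gt and preceded by ag. The SNHG1 exon is not coding, the other 9 are coding.

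Reads on all skipped-exon events ranged from 45420420 to 66423861 per library, and those on members from 5711743 to 9581692. Of the members, 9420 had at least 10 reads in every library of 1 or more comparisons and were tested, 1310 were not tested in any comparison, and 3355 were tested in all 8. Exons were coding for 8987 members (83.8%), and 22.3% of the skipping junctions were in the GENCODE annotation lifted to hg19. GSK591 at 2 days library a stood apart from its replicates on member counts (chi-square per degree of freedom 66.8 and 70.0, at most 8.06 for every other pair). Its mean inclusion, 0.828, was between those of its replicates, and its part in the 2-day results was measured by leaving it out. The keratins KRT7, KRT8 and KRT18 were covered by 131612 to 489789 reads per 4-day DMSO library, CDH1 by 298 to 333 and EPCAM by 17 to 32. No event of the epithelial gene KRT19 or the leukocyte gene PTPRC was listed, which does not show that the gene is silent, since only genes with alternative events are listed.

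Inclusion was expressed as PSI, the share of transcripts that hold the exon, from 0 (always skipped) to 1 (always included), with reads of each form divided by its effective length. Over the 3355 members tested throughout, mean PSI was 0.859 to 0.861 in the 4-day DMSO libraries. It was 0.827 to 0.828 with GSK591 at 2 days and 0.821 to 0.822 at 4 days, and the groups did not overlap. MS023 gave 0.853 in all 3 libraries at 2 days and 0.855 to 0.856 at 4 days. The co-treated libraries had 0.817 to 0.820 at 2 days and 0.822 to 0.825 at 4 days. At 7 days DMSO had 0.862 to 0.864, GSK591 0.827 to 0.835, and MS023 0.859 to 0.864, which overlapped DMSO. Members with a PSI under 0.9 numbered 741 to 752 in the 4-day DMSO libraries (22.1 to 22.4%) and 1084 to 1116 with GSK591 at 4 days (32.3 to 33.3%).

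**Figure D1:**
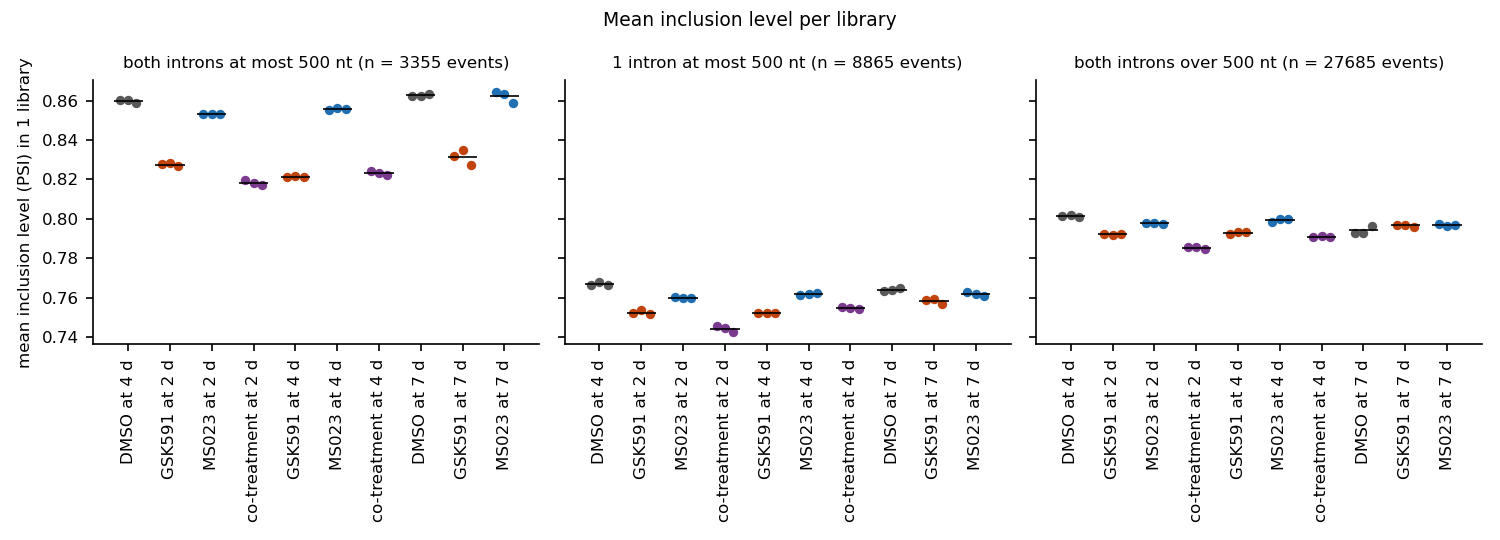
Mean PSI (0 to 1; the axis does not start at 0) in each library, for exons between 2 introns of at most 500 nt (n = 3355), exons with 1 such intron (n = 8865) and exons with both introns over 500 nt (n = 27685). Points are libraries and bars the mean of 3; among exons between short introns, GSK591 and co-treated libraries lie between 0.817 and 0.835, below all DMSO and MS023 libraries.

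Exons with long introns on both sides had smaller shifts in mean PSI, which went from 0.801 to 0.802 in the 4-day DMSO libraries to 0.792 to 0.793 with GSK591 at 4 days. At 7 days the values were 0.793 to 0.797 with DMSO and 0.796 to 0.797 with GSK591, and the groups overlapped. Exons with 1 short intron lay in between at 4 days, with 0.767 to 0.768 in DMSO and 0.752 with GSK591. Whether the classes differed was not tested.

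With GSK591 the exons of TMEM120A (a multipass membrane protein), GPR137 (a lysosomal membrane protein), AP1G2 (a subunit of a clathrin adaptor complex), AAAS (the nuclear pore protein aladin) and SNHG1 (a long noncoding RNA that hosts small nucleolar RNAs) were skipped far more often than with DMSO. At 2 days 582 of 5930 tested members changed, 563 lower and 19 higher, that is 9.81% beside 4.12% of all skipped exons tested. At 4 days 872 of 6107 changed, 832 lower and 40 higher (14.3% beside 6.70%). At 7 days 565 of 5424 changed, 536 lower and 29 higher (10.4% beside 4.60%). A change means a Benjamini-Hochberg adjusted p under 0.05 in the quasi-binomial model of inclusion and skipping counts. By direction, the backgrounds were 3.43% lower and 0.691% higher at 2 days, 5.24% and 1.46% at 4 days, and 2.74% and 1.86% at 7 days.

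Of changed members 96.7% fell at 2 days, 95.4% at 4 days and 94.9% at 7 days, beside 83.2%, 78.2% and 59.5% of all changed skipped exons. Members started nearer full inclusion and so had less room to rise. Their mean PSI was 0.86 in each 4-day DMSO library, beside 0.80 for exons with both introns over 500 nt. The part of this in the direction of change was not tested. The median ΔPSI (inhibitor minus DMSO) of changed members was -0.087, -0.088 and -0.094. Over all tested members it was only -0.00358 at 2 days and -0.00425 at 4 days, beside -0.00176 and -0.00190 over all skipped exons, since most members were almost fully included in every library. The number of calls depends on the test. limma on the log2 odds of inclusion, which does not weigh a library by its reads on the event, called 0 members at 2 days (1373 at an unadjusted p under 0.05), 259 at 4 days and 64 at 7 days. Without GSK591 library a, 456 members were called at 2 days.

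Among members with at least 50 reads in every library, SNHG1 had the largest fall with GSK591 at 2 days. Its 51-nt exon (chr11:62622360-62622410, minus strand) had a PSI of 0.828, 0.828 and 0.848 in the 4-day DMSO libraries and of 0.337, 0.337 and 0.385 with GSK591 at 2 days (ΔPSI -0.482, adjusted p = 1.10e-60). At 4 days the libraries had 0.320, 0.327 and 0.215 (-0.547, adjusted p = 1.16e-80). The 7-day DMSO libraries stood lower, at 0.642, 0.684 and 0.762, against 0.317, 0.303 and 0.257 with GSK591 (-0.404, adjusted p = 5.26e-37). In none of these comparisons did the groups overlap.

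The 77-nt exon of AP1G2 (chr14:24035025-24035101, minus strand) had 0.851, 0.884 and 0.902 with DMSO and 0.412, 0.461 and 0.425 with GSK591 at 4 days (-0.446, adjusted p = 1.54e-19). With GSK591 at 7 days it had 0.444, 0.438 and 0.541, beside 0.880, 0.769 and 0.837 with DMSO (-0.354, adjusted p = 1.10e-08). GSK591 libraries thus lay near an even split of the forms at both times. The 150-nt exon of GPR137 (chr11:64055537-64055686, plus strand) went from 0.898, 0.877 and 0.905 to 0.448, 0.433 and 0.372 at 4 days (-0.475, adjusted p = 6.34e-29). At 7 days it had 0.443, 0.442 and 0.416 with GSK591 and 0.935, 0.861 and 0.921 with DMSO (-0.472, adjusted p = 1.60e-20).

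ARRDC1, an arrestin-domain protein, had an 88-nt exon with 0.932, 0.934 and 0.982 in DMSO and 0.423, 0.354 and 0.327 with GSK591 at 4 days (-0.581, adjusted p = 4.27e-18). A version of the same exon of 98 nt gave -0.548 at 4 days, and the 2 share most of their reads. AAAS (85 nt, chr12:53701629-53701713, minus strand) was almost always spliced in with DMSO, at 0.953, 0.974 and 0.955, and had 0.549, 0.618 and 0.593 with GSK591 at 4 days (-0.374, adjusted p = 5.25e-69). PRPF40B, a factor associated with the U1 snRNP, had a 111-nt exon that went from 0.799, 0.854 and 0.839 to 0.376, 0.269 and 0.332 (-0.505, adjusted p = 3.00e-11).

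With co-treatment 1053 of 6158 tested members changed at 2 days, 1014 lower and 39 higher, that is 17.1% beside 9.04% of all skipped exons (7.63% lower, 1.41% higher). At 4 days 1056 of 6090 changed, 964 lower and 92 higher (17.3% beside 10.4%, of which 7.66% lower and 2.76% higher). The median ΔPSI of changed members was -0.075 and -0.079. The 65-nt exon of TMEM120A (chr7:75616856-75616920, minus strand) had 0.823, 0.878 and 0.811 in DMSO, 0.537, 0.577 and 0.532 with GSK591 at 4 days (-0.289, adjusted p = 4.46e-15), and 0.264, 0.313 and 0.295 with co-treatment (-0.547, adjusted p = 1.62e-59). MS023 alone left it at 0.835, 0.883 and 0.825 (0.010, adjusted p = 0.830), within the DMSO range or just above it. The co-treated libraries lay below all libraries of either inhibitor alone, a difference that was not tested.

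SNHG1 showed the same order, with 0.095, 0.107 and 0.093 in the co-treated libraries at 4 days (-0.736, adjusted p = 7.74e-230). MS023 alone at 4 days gave 0.812, 0.838 and 0.813 (-0.013, adjusted p = 0.778). The 219-nt exon of ARSA, the lysosomal arylsulfatase A, had 0.923, 0.992 and 1.000 with DMSO and 0.469, 0.481 and 0.534 with co-treatment at 4 days (-0.477, adjusted p = 2.07e-17). GSK591 alone at 4 days gave 0.840, 0.772 and 0.954 (-0.116, adjusted p = 0.102), and MS023 alone gave 0.923, 0.770 and 0.735 (-0.163, adjusted p = 0.000113). Both overlapped DMSO. At 2 days MS023 alone gave 0.653, 0.805 and 0.730 (-0.243, adjusted p = 1.51e-08). The 87-nt exon of PABPC4, a cytoplasmic poly(A)-binding protein, went from 0.863, 0.856 and 0.846 to 0.638, 0.621 and 0.684 with GSK591 and to 0.429, 0.420 and 0.439 with co-treatment at 4 days (-0.426, adjusted p = 2.52e-69), with 0.824, 0.833 and 0.842 for MS023 (-0.022, adjusted p = 0.474).

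MS023 changed few members. At 2 days 104 of 5774 were called, 89 lower and 15 higher, that is 1.80% beside a background of 1.38% (1.02% lower, 0.351% higher). At 4 days 105 of 5741 were called, 80 lower and 25 higher (1.83% beside 1.80%, of which 1.22% lower and 0.583% higher). At 7 days 137 of 5292 were called, 75 lower and 62 higher (2.59% beside 2.27%, of which 1.14% lower and 1.13% higher). These shares were close to the background. limma on the log2 odds called 0 members at each time, with 469, 515 and 548 at an unadjusted p under 0.05.

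**Figure D2:**
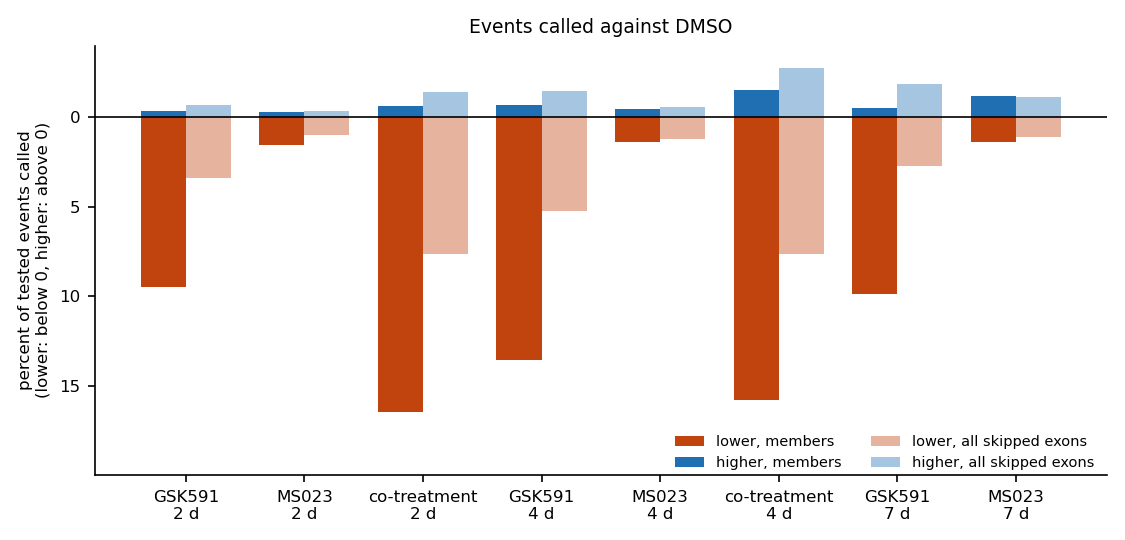
Percent of tested exons called lower (bars below 0) and higher (bars above 0) than DMSO in the 8 comparisons, for exons between 2 short introns (dark) and all skipped exons (light). With GSK591 and co-treatment the dark bars reach 9.81 to 17.3% in total and point almost wholly down; with MS023 they reach 1.80 to 2.59%.

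HIPK3, a homeodomain-interacting protein kinase, and MAPK12 were among the members that fell with MS023. The 63-nt exon of HIPK3 (chr11:33369712-33369774, plus strand) had 0.561, 0.601 and 0.510 in DMSO, 0.348, 0.367 and 0.260 with MS023 at 2 days (-0.232, adjusted p = 0.00238) and 0.198, 0.314 and 0.364 at 4 days (-0.265, adjusted p = 0.000112). With GSK591 at 4 days the libraries had 0.613, 0.610 and 0.721 (0.090, adjusted p = 0.318), and with co-treatment 0.587, 0.591 and 0.495 (0.000, adjusted p = 0.963). MS023 libraries lay below every DMSO library, and the co-treated ones overlapped DMSO at 4 days.

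MAPK12, the stress-activated kinase p38 gamma, has a 72-nt exon (chr22:50694239-50694310, minus strand) with 0.877, 0.889 and 0.982 in DMSO. MS023 gave 0.620, 0.636 and 0.658 at 4 days (-0.278, adjusted p = 1.15e-11) and co-treatment 0.849, 0.634 and 0.691 (-0.191, adjusted p = 0.000157). GSK591 gave 0.909, 0.90 and 0.989, which overlapped DMSO (0.017, adjusted p = 0.640). NR1H3, the nuclear receptor LXR alpha, had a 180-nt exon that fell at all 3 times with MS023 (ΔPSI -0.229, -0.205 and -0.225, adjusted p = 0.00688, 0.0169 and 9.16e-05). In the other direction, the 152-nt exon of SDR39U1, a short-chain dehydrogenase, rose from 0.596, 0.527 and 0.563 to 0.764, 0.844 and 0.789 with MS023 at 4 days (0.237, adjusted p = 6.93e-05).

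Compared directly, without the shared DMSO libraries, GSK591 and MS023 differed at 702 of 4415 members at 2 days, 594 of them lower with GSK591 and 108 higher. The share was 15.9%, beside 8.85% of all skipped exons (5.89% lower, 2.96% higher). At 4 days 980 of 4434 differed, 849 lower and 131 higher (22.1% beside 12.8%, of which 8.52% lower and 4.30% higher). At 7 days 753 of 3961 differed, 654 lower and 99 higher (19.0% beside 10.8%, of which 6.17% lower and 4.59% higher). The number of members called depends on the test, since limma on the log2 odds called 31, 375 and 248 at 2, 4 and 7 days. HIPK3 was higher with GSK591 than with MS023 by 0.356 at 4 days (adjusted p = 2.03e-09) and MAPK12 by 0.295 (adjusted p = 9.39e-10). AP1G2 stood at -0.474 in the same comparison (adjusted p = 9.17e-30) and SNHG1 at -0.534 (adjusted p = 6.71e-80).

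A set of 6 members was singled out because each inhibitor alone changed them against DMSO, in opposite directions, on at least 1 day, and because these had the smallest p in the direct comparison at 2 days. For these the opposite signs are a description. TPM2, the actin-binding beta-tropomyosin, has a 76-nt exon (chr9:35685061-35685136, minus strand) with 0.237, 0.276 and 0.278 in the 4-day DMSO libraries, 0.105, 0.118 and 0.121 with GSK591 at 4 days and 0.437, 0.372 and 0.425 with MS023. The 3 groups did not overlap, and ΔPSI was -0.149 with GSK591 (adjusted p = 1.42e-54) and 0.148 with MS023 (adjusted p = 5.77e-23). Co-treatment gave 0.135, 0.143 and 0.140 (-0.124), on the side of GSK591.

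A neighbouring TPM2 exon, named after its values were seen, moved the other way in 1 of its events. It is also 76 nt long (chr9:35684729-35684804), and in the event that has the first exon as its neighbour its PSI went from 0.321, 0.280 and 0.273 to 0.474, 0.480 and 0.508 with GSK591 at 4 days (0.196, adjusted p = 5.51e-35). MS023 gave 0.188, 0.234 and 0.161 (-0.097, adjusted p = 3.70e-12). Each exon is the other's flank in these events, so the 2 sets of counts share junction reads and are not separate measurements. The skipped form of the first exon's event holds the neighbouring exon. Not both flanking introns of that event are in the GENCODE annotation, though its skipping junction is. Its PSI is thus relative to that form and not a share of all TPM2 transcripts. Whether the 2 exons replace each other was not tested. In an event without the first exon as flank, the neighbouring exon had 0.998, 0.996 and 0.999 with DMSO. GSK591 at 4 days gave 0.986, 0.982 and 0.981 there (-0.014, adjusted p = 1.24e-05). A further such event was not called (-0.001, adjusted p = 0.387).

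STRA13 (also known as CENPX), a histone-fold protein of the centromere and of the Fanconi anaemia core complex, has a 54-nt exon (chr17:79977517-79977570, minus strand) with 0.271, 0.294 and 0.247 in DMSO. GSK591 at 4 days gave 0.094, 0.090 and 0.054 (-0.191, adjusted p = 1.70e-41) and MS023 0.360, 0.374 and 0.333 (0.085, adjusted p = 9.42e-05). At 7 days the differences were -0.202 and 0.105. The other 4 had a PSI of at least 0.869 in every 4-day DMSO library. NT5C, a nucleotidase (61 nt), had 0.942, 0.960 and 0.967 with DMSO and 0.541, 0.557 and 0.50 with GSK591 at 4 days (-0.424, adjusted p = 7.46e-39), and with MS023 at 7 days it rose by 0.035 (adjusted p = 0.0235). AAAS rose by 0.042, TMEM179B by 0.091 and PPP6R1 by 0.090 with MS023 at 7 days (adjusted p = 9.05e-06, 0.000822 and 3.73e-09).

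Of the members that each inhibitor alone changed against DMSO, counted with 1 event per exon, 32 of 41 fell with both at 2 days. At 4 days 31 of 45 did so, and at 7 days 20 of 53. The other 9, 14 and 33 moved in opposite directions. The 2 inhibitors share the DMSO libraries of each day, so these counts are a description. They were not taken over all skipped exons. Of all changed members, 96.7%, 95.4% and 94.9% fell with GSK591 at 2, 4 and 7 days, and 85.6%, 76.2% and 54.7% with MS023. RPS25, a protein of the small ribosomal subunit, had a 129-nt exon (chr11:118888635-118888763, minus strand) with 0.869, 0.896 and 0.843 in DMSO. It had 0.542, 0.550 and 0.493 with GSK591 at 4 days (-0.341, adjusted p = 4.65e-24), 0.510, 0.511 and 0.533 with MS023 (-0.351, adjusted p = 8.93e-23) and 0.179, 0.154 and 0.129 with co-treatment (-0.715, adjusted p = 3.94e-155). The co-treated libraries lay below both single treatments. This exon is the longer form of a 96-nt exon with far more reads, whose PSI went from 0.995, 0.995 and 0.994 to 0.838, 0.825 and 0.822 with co-treatment at 4 days. With GSK591 at 4 days the ΔPSI of the 96-nt form was -0.031. Both forms are set against the same skipping junction. The PSI of the 129-nt form is therefore not the share of all RPS25 transcripts that hold the exon. RNF181 (75-nt exon), an E3 ubiquitin ligase, fell at 4 days by 0.190 (GSK591), by 0.143 (MS023) and by 0.290 (both inhibitors) (adjusted p = 5.24e-11, 7.96e-07 and 2.69e-27). PPP1CA, a catalytic subunit of protein phosphatase 1, had differences of -0.065, -0.086 and -0.081 (adjusted p = 0.000536, 7.20e-07 and 1.16e-06).

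**Figure D3:**
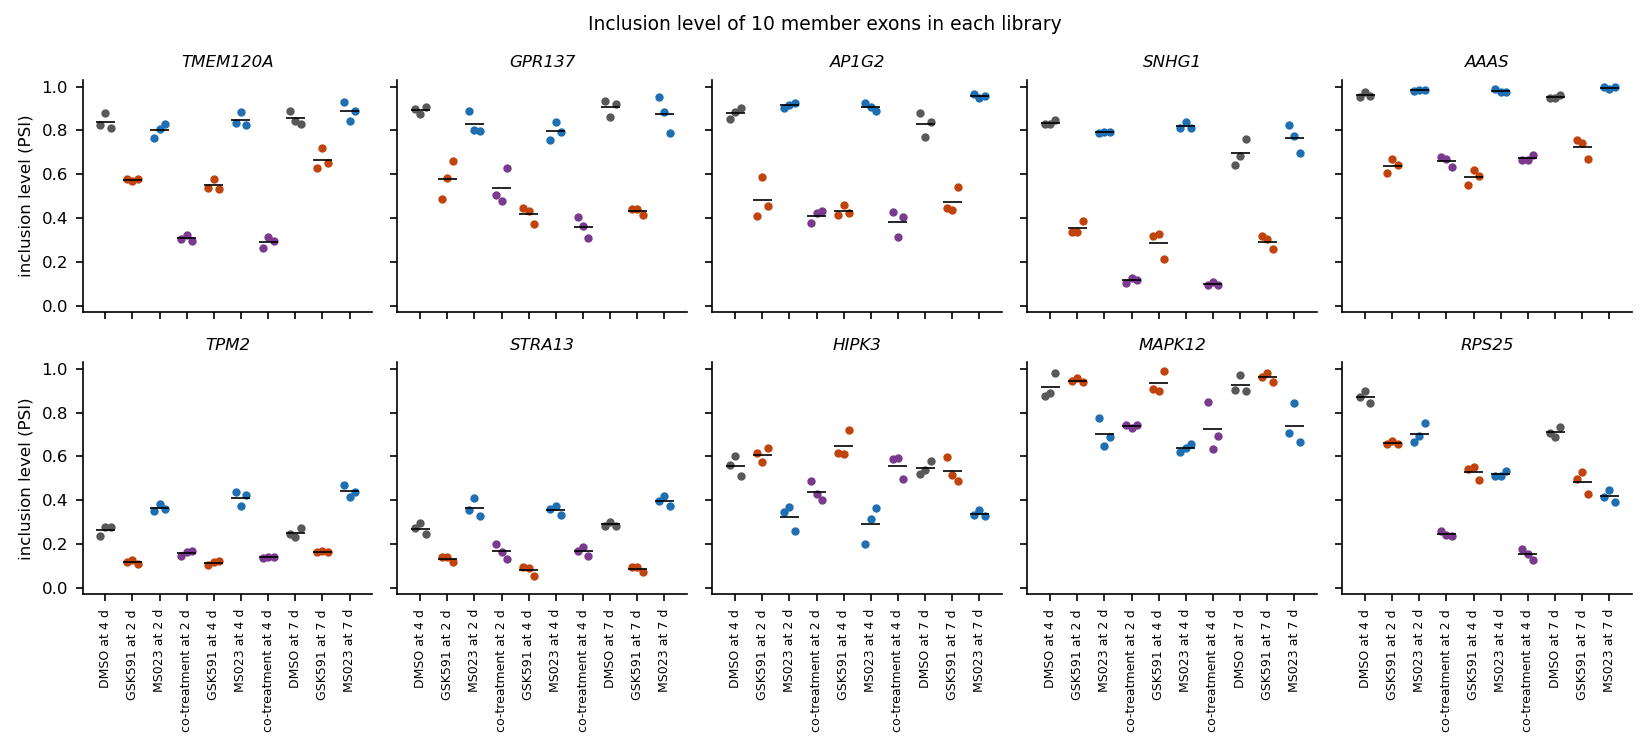
PSI (0 to 1) of 10 members in each library of the 10 groups; points are libraries and lines the mean of 3. TMEM120A, GPR137, AP1G2, SNHG1 and AAAS fall in the GSK591 and co-treated groups, HIPK3 and MAPK12 in the MS023 groups, TPM2 and STRA13 move in opposite directions, and RPS25 falls in all inhibitor groups.

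Whether the effect of an inhibitor changed with time was tested as an interaction of treatment and day, each day with its own DMSO libraries. For GSK591, 60 of 4434 members differed between 4 and 7 days (1.35% beside 1.06% of all skipped exons), and for 45 of them ΔPSI was higher at 7 days, as it was for 489 of the 578 skipped exons called in all. PPP6R1, a regulatory subunit of protein phosphatase 6, had 0.620, 0.644 and 0.642 with GSK591 at 4 days and 0.799, 0.841 and 0.761 at 7 days. Its DMSO libraries also differed, with 0.959, 0.972 and 0.961 at 4 days and 0.863, 0.833 and 0.924 at 7 days, so ΔPSI went from -0.329 to -0.073 (adjusted p of the difference = 6.89e-20). For a 95-nt exon of SRRM2, a large protein of nuclear speckles, ΔPSI went from 0.040 at 4 days to -0.143 at 7 days (adjusted p = 2.75e-10). There too the DMSO level shifted, from 0.129, 0.120 and 0.114 to 0.270, 0.242 and 0.232. For MS023 the quasi-binomial test called 0 of 4219 members (447 at an unadjusted p under 0.05), and 0.0144% of all skipped exons.

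The share of members that changed was set beside that of the other exons of 28 to 300 nt. With GSK591 at 4 days 14.3% changed between 2 short introns, 9.21% with 1 short intron and 4.95% with none. At 2 days the shares were 9.81%, 6.06% and 2.79%, and at 7 days 10.4%, 6.03% and 3.36%. With MS023 the order was not kept: 1.83%, 2.34% and 1.43% at 4 days. Because a call needs reads of the rarer form, the shares were also taken over events with more than 20 such reads in the comparison. They were then 40.2%, 27.9% and 16.4% with GSK591 at 4 days, and 45.6%, 36.7% and 27.1% with co-treatment. These are descriptions, with no test of the classes.

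Within the members, those between the shortest introns changed most often with GSK591 at 2 days. Where the longer of the 2 introns had at most 100 nt, 52 of 345 members changed (15.1%), all of them lower. The shares were 11.6% at 101 to 200 nt, 9.35% at 201 to 300 nt, 8.71% at 301 to 400 nt and 8.64% at 401 to 500 nt. Just outside the limit, with a longer intron of 501 to 1000 nt, 7.29% changed. At 4 days the shares were 17.6% at up to 100 nt, 14.1% at 401 to 500 nt and 11.4% at 501 to 1000 nt. With both introns at most 300 nt the 4-day share was 14.7%, close to the 14.3% of all members. At 7 days the shares were 9.67% at up to 100 nt and 10.5% at 401 to 500 nt, so the gradient was not seen then. With MS023 at 2 days the share was 0.641% at up to 100 nt and 1.85% at 401 to 500 nt.

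**Figure D4:**
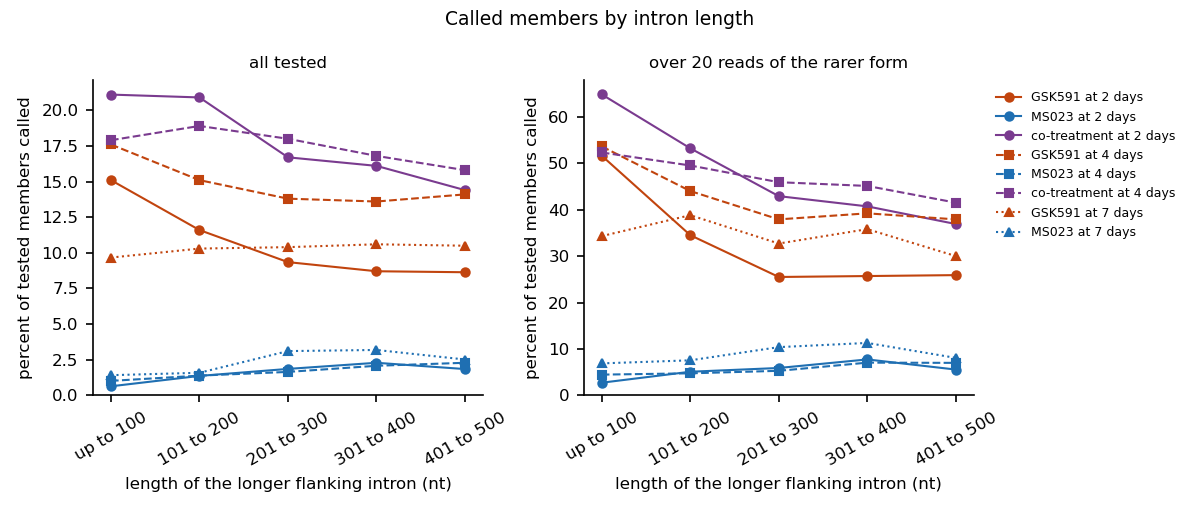
Percent of tested exons between 2 short introns that were called, by length of the longer flanking intron (nt), for all tested (left) and for those with over 20 reads of the rarer form (right). With GSK591 at 2 days the share goes from 15.1% at up to 100 nt to 8.64% at 401 to 500 nt, and from 51.6% to 25.9% in the right panel.

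Shares also differed with the starting level. With GSK591 at 2 days 13.7% of members with a DMSO PSI of up to 0.5 changed, and 29.4% at 0.5 to 0.8. The shares were 20.6% at 0.8 to 0.95, 14.6% at 0.95 to 0.99 and 5.31% at 0.99 to 1. Median reads of the rarer form were 68, 140, 55, 20 and 3 in these ranges, so depth differed between them too. Of the 3637 members in that highest range, 193 changed. Among members called lower, 41 of 563 at 2 days (7.28%) and 96 of 832 at 4 days (11.5%) had no skipping read in any DMSO library, so their skipped form was below detection at this depth. Exons under 150 nt, whose inclusion counts hold junction reads alone, changed in 454 of 4396 cases (10.3%) and longer ones in 128 of 1534 (8.34%). At 4 days 14.2% of exons whose length is a multiple of 3 changed, and 14.3% of the others.

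Over all tested members, annotated skipping went with more calls. With GSK591 at 4 days 23.4% of 1724 members whose skipping junction is in GENCODE changed, and 10.7% of 4383 whose junction is not. This was not kept among events with more than 20 reads of the rarer form. There the skipping junction was annotated for 47.7% of the 750 members called lower and 58.8% of the 1176 not called. The share was above both for the 40 called higher. The part of read depth in the first relation was not tested. At the donor site after the exon, members called lower with GSK591 at 4 days had G at the third intron base in 59.3% of cases, beside 49.9% of those not called, among events with more than 20 reads of the rarer form. With co-treatment at 4 days the values were 60.5% for members called lower, 51.3% for those not called, and 23.8% for the 80 called higher. The last exon base was G in 76.7% of members called lower with GSK591 at 4 days and in 81.7% of those not called. In the sequences above, the exons of TMEM120A and MAPK12 end in C. The TMEM120A exon was called lower with GSK591 at 4 days, and the MAPK12 exon was not called.

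Some flanking introns were also more retained. With GSK591 at 4 days a flanking intron was called more retained for 648 tested members, of which 140 changed (21.6%). Of the 6107 tested members, 4879 had neither flank listed as a retained intron, and 658 of these changed (13.5%). Among events with more than 20 reads of the rarer form, 38.8% changed with neither flank listed and 44.8% with a flank listed. AP1G2 had both introns more retained with GSK591 at 4 days, by 0.338 upstream and 0.311 downstream on the PSI scale of retention (adjusted p = 1.11e-18 and 2.36e-16). The upstream intron of NT5C was more retained by 0.479 (adjusted p = 1.32e-65) and that of SNHG1 by 0.115 (adjusted p = 0.000261). The part of retention in the inclusion values was not tested.

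The members were also followed in 8 gene lists, with 1 event per exon; over all members counted that way 14.5% changed after 4 days of GSK591, 1.92% after MS023 and 17.7% after co-treatment, and the median ΔPSI with GSK591 was -0.0039. The lists were chosen with earlier results of these data known. Of the translation and ribosome list, 29 of 129 tested exons changed with GSK591 at 4 days, 28 lower and 1 higher (22.5%, median ΔPSI over the list -0.0003). RPL17, of the large ribosomal subunit, had a 94-nt exon that went from 0.928, 0.940 and 0.975 to 0.707, 0.692 and 0.719 (-0.242, adjusted p = 5.15e-17), with 0.465, 0.420 and 0.420 after co-treatment. A shorter, 41-nt version of this exon, almost always included, went from 0.997, 0.997 and 0.999 to 0.986, 0.983 and 0.984 with GSK591 (-0.014, adjusted p = 1.64e-19). An exon of EIF4A1, the helicase of cap-dependent initiation, changed by only -0.010 (adjusted p = 6.59e-09). The exon of RPS27 that rose was rarely included, at 0.008, 0.012 and 0.006 with DMSO and 0.045, 0.040 and 0.041 with co-treatment at 4 days (0.033, adjusted p = 1.08e-85).

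Among spliceosome components 7 of 47 tested exons changed with GSK591 at 4 days, all lower (14.9%, median -0.0012), and 1 of 37 with MS023. PRPF39, another U1 snRNP factor, had a 100-nt exon included at a low level that went from 0.354, 0.389 and 0.337 to 0.171, 0.178 and 0.119 (-0.204, adjusted p = 2.18e-06). U2AF2, which binds the polypyrimidine tract, changed by -0.004 (adjusted p = 0.0203). Among splicing regulators 9 of 71 changed with GSK591 at 4 days, 6 lower and 3 higher (12.7%, median -0.0004), and 5 of 70 with MS023, all lower (7.14%). SRSF1 had a 203-nt exon with 0.987, 0.99 and 0.974 in DMSO and 0.953, 0.95 and 0.942 with MS023 at 4 days (-0.035, adjusted p = 1.29e-05), but 0.984, 0.975 and 0.968 with GSK591 (-0.008, adjusted p = 0.341). SRSF4, of the same SR family, gained a 195-nt exon with co-treatment, from 0.037, 0.028 and 0.011 to 0.132, 0.220 and 0.151 (0.143, adjusted p = 2.69e-14).

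In the cell cycle and mitosis list 5 of 50 exons changed with GSK591 at 4 days, all lower (10.0%, median -0.0042). CDC25B, a phosphatase that activates cyclin-dependent kinases, went from 0.807, 0.787 and 0.773 to 0.548, 0.546 and 0.488 at its 123-nt exon (-0.262, adjusted p = 2.67e-50). AURKB, a mitotic kinase, fell by 0.211 at a 185-nt exon (adjusted p = 1.85e-11). KIF23, a kinesin of cytokinesis, did so with MS023 instead, from 0.986, 0.979 and 0.966 to 0.946, 0.918 and 0.901 (-0.056, adjusted p = 0.000517), with 0.958, 0.99 and 0.996 for GSK591. Among DNA repair and replication genes 6 of 65 changed with GSK591 at 4 days, all lower (9.23%, median -0.0051), and 13 of 74 with co-treatment (17.6%). RTEL1, a helicase that maintains telomeres, had a 245-nt exon with 1.000, 0.929 and 1.000 in DMSO and 0.775, 0.584 and 0.575 with GSK591 (-0.331, adjusted p = 7.05e-07). FANCG, of the Fanconi anaemia core complex, fell by 0.155 at 4 days (adjusted p = 2.78e-07) and by 0.203 at 7 days (adjusted p = 2.03e-11).

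Of the mRNA export and decay list 6 of 46 exons changed with GSK591 at 4 days, all lower (13.0%, median -0.0057). THOC6, of the THO export complex, went from 0.975, 0.994 and 1.000 to 0.932, 0.928 and 0.949 (-0.053, adjusted p = 0.0138), and both of its flanking introns were more retained (0.368 and 0.203, adjusted p = 2.97e-24 and 3.44e-10). Of the RNA polymerase II and transcription list 4 of 53 changed, all lower (7.55%, median -0.0023). TAF1C in that list is a factor of RNA polymerase I, and its 72-nt exon had 0.95, 1.000 and 0.989 with DMSO and 0.779, 0.641 and 0.752 with co-treatment at 2 days (-0.256, adjusted p = 2.12e-06). Arginine methyltransferases and partners, a list with members in 3 genes, had 9 tested exons at 4 days with GSK591, of which 4 changed, all lower (44.4%), while the median over the list was above 0 (0.0020). The CARM1 exons that changed include a pair that overlap. CARM1, a Type I enzyme, had a 69-nt exon that fell at 4 days by 0.094 (GSK591), by 0.104 (MS023) and by 0.152 (both inhibitors) (adjusted p = 0.00301, 0.000271 and 4.04e-10). WDR77, the partner of PRMT5, had a rarely used 106-nt exon that went from 0.040, 0.029 and 0.046 to 0.008, 0.002 and 0.011 with GSK591 at 4 days (-0.031, adjusted p = 0.000195).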

How the data were processed

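Members and gene lists were chosen with earlier results of these data known. According to the study's methods and processing notes, the authors aligned stranded 150-nt paired reads to hg19 with STAR 2.4.2a after Trim Galore 0.6.5, and compared each inhibitor group with DMSO by rMATS 4.0.2. The deposited tables give, for each event, 3 comma-separated values per group of inclusion and of skipping read counts with their effective lengths (other columns hold the authors' own p-values, false discovery rates and inclusion differences, which were not used). rMATS lists an event only where both forms were seen. Depth is given as reads on skipped-exon events, and no library order beyond a, b and c is stated.

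PSI was recomputed from the counts. Counts were tested with a quasi-binomial logistic model, its dispersion moderated by limma 3.58.1 (R 4.3.3; trend on the reads of the rarer form) and held at 1 or above, over all skipped exons with at least 10 reads in every library, with Benjamini-Hochberg adjustment over all of them and a threshold of 0.05. The script was tested on simulated counts. Named members have at least 50 reads per library, with 1 event per exon: per comparison the 3 largest called differences without overlap; the 8 called in most comparisons; the 6 opposite members with the smallest direct p at 2 days; and members of the 8 lists called in 3 or more comparisons. Where flanking introns were tested for retention, the same model was used on the retained-intron tables. Annotation comes from GENCODE lifted to hg19, and sequence from hg19 (Python 3.11.15, pandas 2.3.3, pysam 0.24.0).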

Additional observations from a re-analysis of the deposited data

Results flagged for a closer look

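The effects of the inhibitors differed from each other, by the direct test, at 702 members at 2 days, 980 at 4 days and 753 at 7 days, and by limma on the log2 odds at 31, 375 and 248. The effect of GSK591 differed between 4 and 7 days at 60 members. Of the 6 members chosen for opposite changes, PSI with GSK591 minus PSI with MS023 at 2 days was -0.245 for TPM2, -0.232 for STRA13, -0.288 for PPP6R1, -0.345 for AAAS, -0.331 for NT5C and -0.356 for TMEM179B. For these 6 the direct p at 2 days was part of how they were chosen.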

How the results depend on the processing

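Counts of called members are given in the order GSK591, MS023 and co-treatment at 2 days, the same at 4 days, then GSK591 and MS023 at 7 days. limma on the log2 odds of inclusion called 0, 0, 548, 259, 0, 578, 64 and 0, and 31, 375 and 248 in the direct comparisons at 2, 4 and 7 days. With an absolute difference of at least 0.1 as well, 270, 35, 445, 422, 33, 500, 280 and 50 were called. With introns of at most 300 nt the counts were 330, 45, 594, 459, 43, 565, 284 and 62, and with at most 1000 nt 1028, 201, 1837, 1590, 220, 1911, 955 and 270. At an adjusted p under 0.01, MS023 had 63, 65 and 88. Alternatives chosen after the data were seen were 1 prior dispersion for all events, which gave 254, 271 and 282 for MS023 and 862 for GSK591 at 7 days, and exons under 150 nt alone, which gave 68 for MS023 at 2 days. Leaving out each library gave 421 to 503, 71 to 75, 786 to 899, 672 to 761, 65 to 82, 817 to 930, 444 to 503 and 83 to 114, and 523 to 617, 802 to 845 and 597 to 670 in the direct comparisons. MS023 counts moved by over 1.5 times without DMSO library b at 4 days (65) and, at 7 days, without DMSO library b (86) or MS023 library b (83).

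The median ΔPSI over tested members without division by effective length was -0.00214, -0.00059, -0.00333, -0.00258, -0.00038, -0.00209, -0.00205 and -0.00022. At 20 reads it was -0.00099 (MS023) and -0.00523 (co-treatment) at 2 days, -0.00404 (GSK591) and -0.00060 (MS023) at 4 days, and -0.00310 and -0.00034 at 7 days. Leaving out libraries gave -0.00384 to -0.00273, -0.00112 to -0.00022, -0.00563 to -0.00438, -0.00459 to -0.00340, -0.00082 to 0.00000, -0.00372 to -0.00268, -0.00361 to -0.00244 and -0.00052 to 0.00000. Of 412 called values of named members none changed direction when a library was left out. None did so without division by effective length, which only rescales the same counts. Direction was not checked for limma on the log2 odds, which kept 89 of the 412 values past the threshold. Without at least 1 library, 89 of the 412 were lost. The causes were not tested. A planned count model from another package was not run, because each table cell holds 3 values rather than a count column.

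No alternative was run for the tests of 7 against 4 days. No paired analysis was possible because the columns carry no replicate numbers. With GSK591 at 2 days the quasi-binomial test called 0 of 2580 members with 1 to 5 reads of the rarer form (247 at an unadjusted p under 0.05). It called 2.97% of members with 6 to 20 reads and 47.8% of those with over 100, so depth limits what can be seen in almost fully included exons.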
